A study of Mus musculus with 48 samples.

Results

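The mevalonate pathway before squalene was followed through 8 of its enzyme genes, Acat2, Hmgcs1, Mvk, Pmvk, Mvd, Idi1, Fdps and Ggps1, in whole liver of mice carrying altered LXRα. The 8 members were found by the Ensembl identifiers of their symbols among 55416 genes with deposited read counts, and all 8 passed the filter on low counts that left 15711 genes for testing. RNA was sequenced from 48 livers of C57Bl/6J mice, 8 in each of 6 groups. In the knock-in study, DN:WT, DN:HET and DN:HOM mice carried 0, 1 or 2 copies of a dominant-negative point mutation of the LXRα gene Nr1h3. In the knockout study, KO:WT, KO:HET and KO:HOM mice carried 0, 1 or 2 null copies of the same gene. Every group had eaten a western diet for 8 weeks, with 0.2% cholesterol in the diet, from about 8 to about 16 weeks of age, so there was no group on another diet. The knock-in line came from 1 founder, its livers came from male mice according to the methods, and both alleles are germline, the null line having been backcrossed from a mixed background, so they act in every cell of the animal and not in hepatocytes alone. The studies were run at different sites with littermate wild types of their own. Site and study cannot be told apart when levels are set across them.

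Cells make cholesterol and other isoprenoids from acetyl-CoA. Acat2 joins acetyl units to acetoacetyl-CoA, Hmgcs1 adds another to give HMG-CoA, a reductase that is not among the members forms mevalonate, Mvk and Pmvk phosphorylate it, Mvd decarboxylates it to isopentenyl diphosphate and Idi1 isomerises this 5-carbon unit. Fdps then joins the units to farnesyl diphosphate, the branch point from which squalene and cholesterol are made, and Ggps1 extends it to geranylgeranyl diphosphate, which anchors small GTPases in membranes. The transcription factor SREBP-2 is known to raise many genes of this pathway when sterol in the endoplasmic reticulum falls, while LXRα senses oxysterols and raises genes of cholesterol export and fatty acid synthesis.

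The genes lie on 5 chromosomes of GRCm39. Acat2 occupies chr17:13161367-13179641 on the minus strand, Hmgcs1 chr13:120151915-120170470 on the plus strand, Mvk chr5:114582267-114601803 on the plus strand and Pmvk chr3:89361758-89376323 on the plus strand. Mvd occupies chr8:123160336-123170324 on the minus strand, Idi1 chr13:8935537-8942487 on the plus strand, Fdps chr3:89000888-89019213 on the minus strand and Ggps1 chr13:14224331-14238073 on the minus strand. Exons of Acat2 overlap those of Tcp1 by 322 bases, exons of Ggps1 overlap those of Arid4b by 257 bases, and exons of Hmgcs1, Mvd and Idi1 overlap those of other genes, all on the opposite strand, and reads were counted by strand.

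Since several members moved together, the bases just upstream of their start sites were searched for the letters TCACNCCAC (a sterol regulatory element form bound by SREBP), CCAAT (bound by NF-Y) and GGGCGG (bound by Sp1), each on both strands, where N is any base and no motif contains another. In the 250 bases upstream in the RefSeq promoter table of GRCm38.p6, TCACNCCAC occurs in 1.05% of all 32851 promoters, CCAAT in 33.85% and GGGCGG in 32.74%. The table held 7 of the 8 members, with 2 start sites for Pmvk. Fdps was not matched. TCACNCCAC was found upstream of Hmgcs1 only. CCAAT was found upstream of 6 members, with 5 copies at Mvk, 3 at Hmgcs1, 3 at Ggps1, 2 at Mvd, 2 at Idi1 and 1 at the first start site of Pmvk. GGGCGG was found upstream of Hmgcs1 and Mvk with 2 copies each and upstream of Acat2, Mvd and Idi1 with 1 copy each. The bases searched end at the start sites of that table, and some lie in annotated exons. All motifs at Mvd and Idi1 lie within exons of those genes, which fill 163 and 105 of the 250 bases. At Mvk, 63 of the bases are its own exon and 94 an exon of Mmab. At the second start site of Pmvk all 250 bases are Pmvk exon. The stretches below are placed on GRCm39 by an exact match, read 5′ to 3′ on the strand of the gene, and show every motif that is whole within them in capitals. They are given because Hmgcs1 and Acat2 catalyse the first steps and were called lower in both homozygous comparisons over the 46 livers by edgeR, while Mvk was called in neither. The Acat2 stretch (chr17:13179642-13179862, minus strand) covers bases 250 to 30 upstream, the Hmgcs1 stretch (chr13:120151637-120151886, plus strand) bases 250 to 1, and the Mvk stretch (chr5:114582174-114582266, plus strand) the 93 bases between the annotated exons of Mvk and those of its divergent neighbour Mmab.
Acat2: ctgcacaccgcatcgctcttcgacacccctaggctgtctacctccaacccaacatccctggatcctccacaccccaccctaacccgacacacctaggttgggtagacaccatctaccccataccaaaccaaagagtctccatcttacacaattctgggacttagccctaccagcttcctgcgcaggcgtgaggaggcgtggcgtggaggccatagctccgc
Hmgcs1: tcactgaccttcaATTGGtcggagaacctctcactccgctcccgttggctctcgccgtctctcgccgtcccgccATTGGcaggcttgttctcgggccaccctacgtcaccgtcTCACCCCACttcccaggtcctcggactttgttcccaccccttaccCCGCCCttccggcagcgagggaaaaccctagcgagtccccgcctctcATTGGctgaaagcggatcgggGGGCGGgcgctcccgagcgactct
Mvk: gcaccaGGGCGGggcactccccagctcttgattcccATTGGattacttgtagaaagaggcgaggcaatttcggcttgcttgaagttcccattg
The Hmgcs1 stretch holds TCACCCCAC at bases 137 to 129 upstream, while the Acat2 stretch holds none of the 3 motifs whole. Ggps1 has CCAAT at 3 places and neither of the other motifs. A motif match describes these letters only.

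Not every liver resembled its labelled group. Reads on genes ranged from 5332897 to 16961379 per liver, and 2 livers, KO:HET animal 3 and KO:HOM animal 17, had under 10000000. DN:WT animal 10 and DN:HOM animal 12 lay outside the other livers of their own group for 6 members, each on the side of the other homozygous or wild-type group, and a sheet of the study's source data, matched by script to the counts, leaves out both, although the study elsewhere describes full groups. Some marker sums and Nr1h3 lay on that side too. Animal 10 had 1162 CPM summed over 6 cholangiocyte markers, 1855 CPM over 10 macrophage markers and 71.3 CPM of Nr1h3, and animal 12 had 43.4, 261 and 86.9 CPM. Whether the labels of these livers were exchanged was not tested, and values over all 48 livers take the labels as given. The main results therefore rest on the other 46 livers, and the counts of members called are given again for all 48. Levels are given as CPM, the count of a gene scaled to a common library total with TMM factors, with 1 value for each liver. Nr1h3 itself had 93.6 ± 8.82 CPM (SD, n = 8) in KO:WT, 59.2 ± 5.63 in KO:HET and 27 ± 1.99 in KO:HOM, with no overlap between these groups. The knock-in changes a codon, so its RNA level does not check the DN labels. In DN:HOM it was 72.8 ± 3.56 CPM (n = 7) against 91.8 ± 5.04 in DN:WT (n = 7). Markers of other cell types moved with the homozygous genotypes, and some of them in DN:HET. The summed level of 10 macrophage markers ran from 247 to 464 CPM in DN:WT and from 1205 to 1917 CPM in DN:HOM, all 10 being higher there. In KO:HOM this sum ran from 437 to 1641 CPM against 176 to 412 CPM in KO:WT, with 9 of 10 higher. Of the 10, 8 were higher in each over all 48 livers. The 6 cholangiocyte markers summed to 30.3 to 70.8 CPM in DN:WT and 723 to 1070 CPM in DN:HOM, all 6 higher, whereas 1 of 6 was higher in KO:HOM and none over all 48 livers. Of 12 hepatocyte markers, 8 were lower and 1 higher in DN:HOM and 7 were lower in KO:HOM, counts that became 7, 1 and 3 over all 48 livers. These RNAs come from whole liver, so fewer hepatocytes and less RNA in each hepatocyte cannot be told apart, and the part of cell makeup in the results below was not tested beyond a rescaling to hepatocyte genes. Labels do not say whether livers of a group came from separate litters or cages, so p-values measure the spread between these animals.

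How well a read can be assigned differs among the members. Reads were counted only where they mapped to a single place, and a canonical transcript whose bases recur nearly unchanged elsewhere in the genome loses reads. By blastn against GRCm39, 95.7% of the 2590 bases of the Idi1 transcript lie in copies of at least 98% identity over at least 100 bases, all in the processed pseudogene Idi1-ps1, which leaves 112 bases. For Fdps, 89.3% of 1306 bases lie in the pseudogene Gm3571, leaving 140 bases. For Acat2, 44.6% of 2667 bases are shared with the neighbouring paralog Acat3. Hmgcs1, Mvk, Pmvk, Mvd and Ggps1 keep over 90% of their bases. Fdps had 1 to 93 reads per liver with a median of 20.5, and Idi1 18 to 283 with a median of 92, both from few unique bases, so the levels of both understate their transcripts by an unknown amount. Changes between groups remain readable, because the same bases are lost in every liver.

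**Figure D1:**
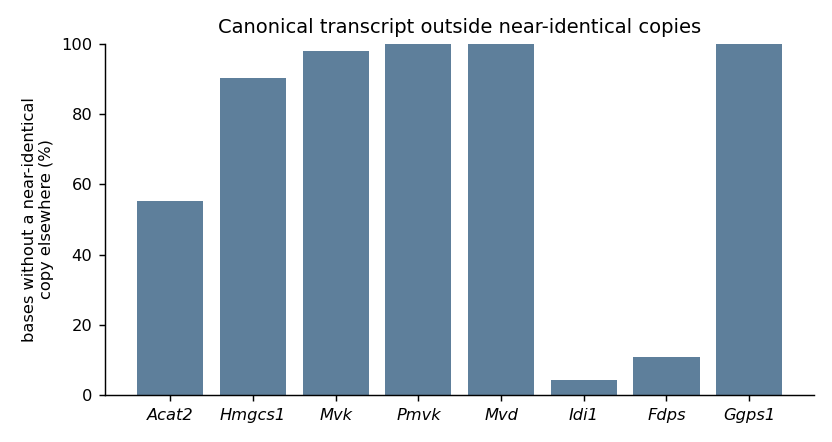
Share of the bases of each member's canonical transcript that have no copy of at least 98% identity over at least 100 bases elsewhere in GRCm39 (y axis, percent). Idi1 keeps 4.32% and Fdps 10.7%, Acat2 keeps 55.4%, and the other members keep over 90%.

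Levels between genes were compared per length in the 46 livers, over the 5 members that keep over 90% of their bases. In DN:WT, Hmgcs1 stood highest with 49.2 ± 9.80 CPM per kilobase of canonical transcript (SD, n = 7). Pmvk followed with 17.3 ± 5.07, then Mvd with 5.68 ± 2.72, Ggps1 with 2.64 ± 0.312 and Mvk with 1.61 ± 0.291 CPM per kilobase. Neighbours in this order lay apart by more than 1 SD of either gene. In KO:WT the order was the same, with Hmgcs1 at 27.8 ± 13.4 CPM per kilobase and Pmvk at 16.3 ± 8.03, which lie within 1 SD of Hmgcs1 of each other, and Mvd at 3.51 ± 1.89 and Ggps1 at 2.49 ± 0.341, which lie within 1 SD of Mvd.

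The question put to the knock-in mice was what a repressive LXRα does to liver gene expression on this diet. In DN:HOM livers 6 of the 8 members were lower than in DN:WT, namely Acat2, Hmgcs1, Pmvk, Mvd, Idi1 and Fdps, to between 17.9% and 37.9% of the wild-type level, while Mvk and Ggps1 did not pass the test. No member was higher. Of all genes tested, 30% were called lower in this comparison and 59.1% in either direction, so a call alone is common here. The median log2 fold change was -1.46 over the members and -0.01 over all genes. Over all 48 livers the same 6 members were called, against 25% of all genes called lower, with a member median of -1.06. Tests were edgeR's quasi-likelihood F test with Benjamini-Hochberg adjustment over all genes, threshold 0.05.

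**Figure D2:**
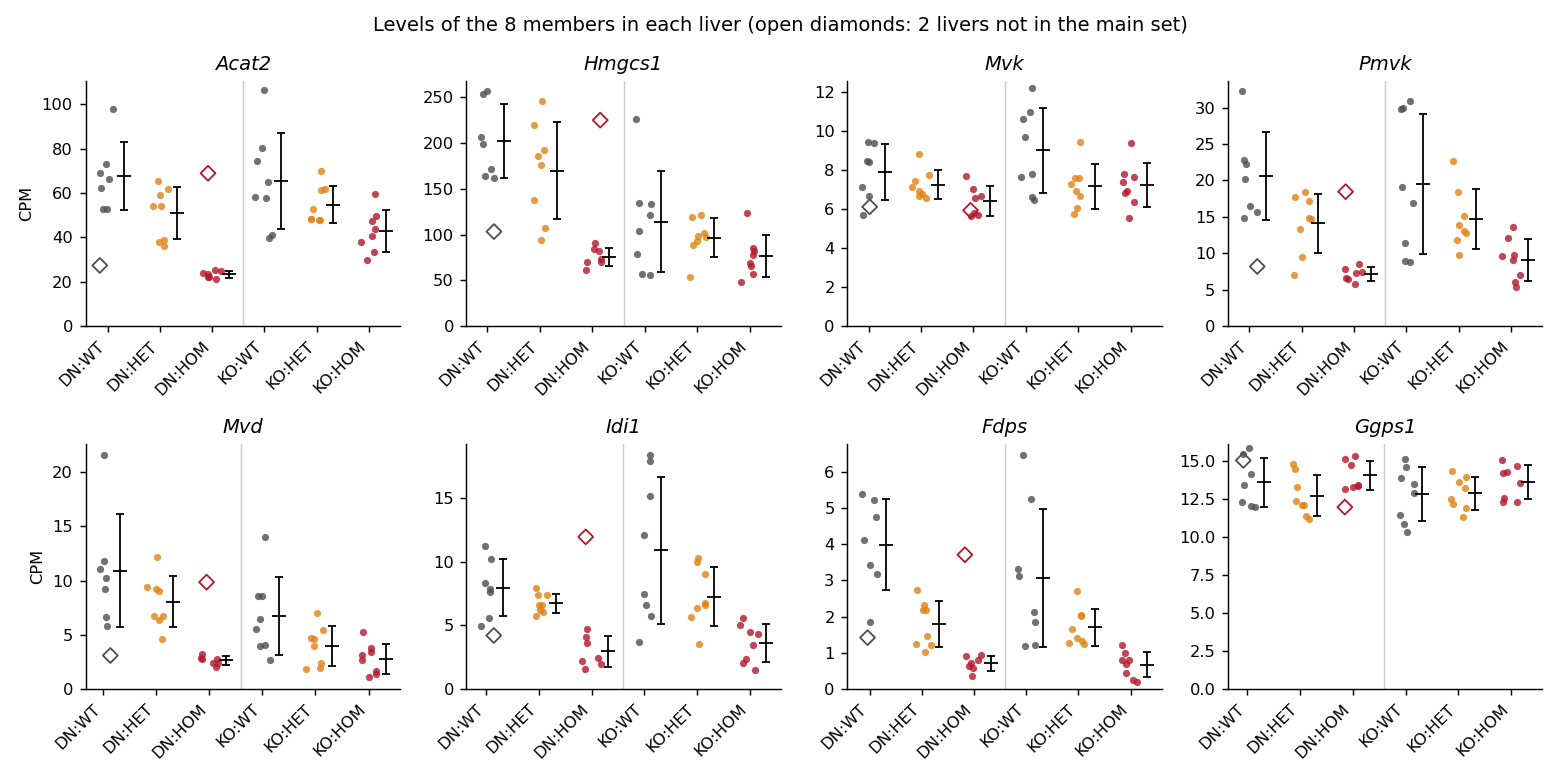
CPM of each member (y axis, from 0) in every liver of the 6 groups (x axis). Filled points are the 46 livers of the main set, open diamonds DN:WT animal 10 and DN:HOM animal 12, and bars the mean and SD of the main set. Filled points of DN:HOM lie below all those of DN:WT in 6 panels and overlap them for Mvk and Ggps1, and in those 6 panels each diamond lies outside the filled points of its own group, on the side of the other.

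At the entry to the pathway, Acat2 ran from 52.6 to 97.7 CPM in the 7 DN:WT livers, with a median of 66.1. In the 7 DN:HOM livers it ran from 21.3 to 25.4, with a median of 23.6. The groups did not overlap and the homozygous livers were packed close together, with a coefficient of variation of 6.49% against 22.7%. Its log2 fold change was -1.52 ± 0.17 (SE; adjusted p = 1.62e-10 by edgeR). DN:WT animal 10 had 27.4 CPM and DN:HOM animal 12 had 69.0 CPM, and over all 48 livers the change was -1.11 ± 0.21 (adjusted p = 9.97e-05 by edgeR). Acat3, the paralog that shares bases with Acat2, changed far less, by -0.20 on the log2 scale in the same comparison.

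Hmgcs1, which makes HMG-CoA in the cytosol, ran from 161 to 257 CPM in DN:WT, with a median of 198, and from 60.8 to 90.3 CPM in DN:HOM, with a median of 72.9. Every DN:HOM liver lay below every DN:WT liver. The log2 fold change was -1.40 ± 0.22 (adjusted p = 8.57e-07 by edgeR), and -1.01 ± 0.25 over all 48 livers (adjusted p = 0.00123), where animal 10 had 103 CPM and animal 12 had 225 CPM.

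The kinases differed. Pmvk, which adds the second phosphate to mevalonate, ran from 14.8 to 32.3 CPM in DN:WT (median 20.1) and from 5.77 to 8.55 CPM in DN:HOM (median 7.34), with no overlap, a log2 fold change of -1.52 ± 0.25 (adjusted p = 1.20e-06 by edgeR) and -1.16 ± 0.26 over all 48 livers. Mvk, which adds the first phosphate, ran from 5.70 to 9.47 CPM in DN:WT (median 8.41) and from 5.64 to 7.68 CPM in DN:HOM (median 6.60). Here the groups overlapped, though all 7 DN:HOM livers lay below the DN:WT median. The log2 fold change was -0.28 ± 0.13 (95% interval -0.54 to -0.02, adjusted p = 0.0563 by edgeR), which was called with unstranded counts (-0.30, adjusted p = 0.0434), and -0.27 ± 0.12 over all 48 livers (adjusted p = 0.0681).

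Mvd, which forms isopentenyl diphosphate, ran from 5.77 to 21.6 CPM in DN:WT (median 10.2) and from 2.02 to 3.25 CPM in DN:HOM (median 2.78), again with no overlap. Its log2 fold change of -2.03 ± 0.32 (adjusted p = 4.78e-07 by edgeR) became -1.50 ± 0.35 over all 48 livers. Idi1 ran from 4.96 to 11.2 CPM in DN:WT (median 7.85) and from 1.56 to 4.74 CPM in DN:HOM (median 2.45). The highest homozygous liver lay just under the lowest wild-type liver. The log2 fold change was -1.41 ± 0.29 (adjusted p = 5.63e-05 by edgeR), and -0.89 ± 0.32 over all 48 livers (adjusted p = 0.0193), with animal 12 at 11.96 CPM above every DN:WT liver.

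The prenyl diphosphate synthases stood at opposite ends. Fdps, at the branch point, ran from 1.85 to 5.38 CPM in DN:WT (median 4.11, 25 to 79 reads) and from 0.345 to 0.935 CPM in DN:HOM (median 0.723, 7 to 19 reads). No DN:HOM liver reached the lowest DN:WT liver. The log2 fold change of -2.48 ± 0.32 (adjusted p = 1.20e-08 by edgeR) was the lowest of the members and became -1.80 ± 0.37 over all 48 livers. When the reads of Idi1-ps1 and Gm3571 were added to Idi1 and Fdps, the same 6 members were called, with Fdps at -2.38. Ggps1, which uses the product of Fdps, ran from 11.99 to 15.9 CPM in DN:WT (median 13.4) and from 13.1 to 15.3 CPM in DN:HOM (median 13.4). The groups lay on top of each other. The log2 fold change was 0.06 ± 0.08, with a 95% interval from -0.11 to 0.23 (adjusted p = 0.548 by edgeR), and 0.00 ± 0.08 over all 48 livers.

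In the main set the 6 called members had groups that did not overlap, where 15.8% of all genes did not overlap in that direction. With all 48 livers no member kept its groups apart, against 0.0640% of all genes. The direction and call of Mvk and the call of Ggps1 depend on the scaling. With library size alone the median of all genes moved to 0.42 in this comparison, Mvk to 0.15 without a call and Ggps1 to 0.49 with one. With scaling to 12 hepatocyte genes the median moved to 0.69, and both were called higher, Mvk at 0.41 (adjusted p = 0.00879 by edgeR) and Ggps1 at 0.76. Relative to those medians, Mvk stood at -0.27 and -0.28 and Ggps1 at 0.07 in both. A scaling moves all genes of a comparison by nearly the same amount. Values relative to the median therefore repeat the main estimates and add no evidence. Each of the 6 called members stayed lower and called under both scalings, at -0.70 to -1.77 with hepatocyte scaling. Of 15711 genes, 4713 were called lower in the main fit, 1738 with library size alone and 939 with hepatocyte scaling.

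**Figure D3:**
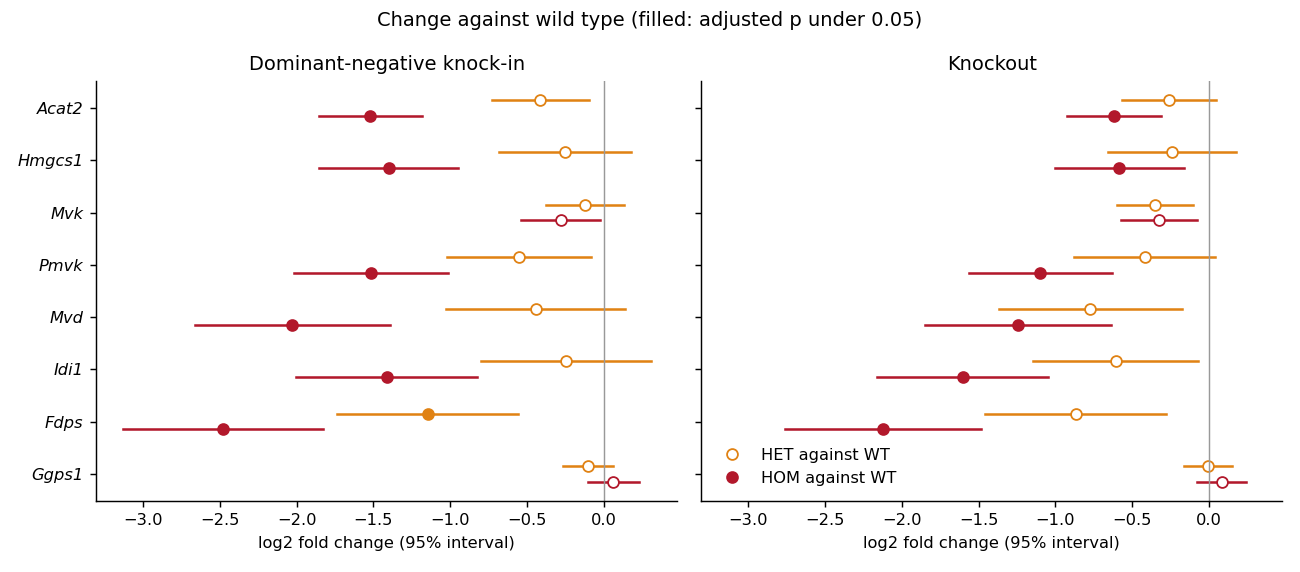
Log2 fold change against wild type (x axis) of each member in DN:HET and DN:HOM (left) and KO:HET and KO:HOM livers (right), with 95% intervals and filled points at adjusted p under 0.05. The HOM estimates of 7 members lie left of 0 in both studies, those of 6 of them filled, Ggps1 sits at 0.06 and 0.08, and Fdps alone is filled among the HET estimates.

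In DN:HET livers only Fdps was called lower, to 45.1% of DN:WT, where 0.07% of all genes were called lower and 2.3% in either direction. Fdps ran from 1.03 to 2.72 CPM (median 1.82), which overlaps the lowest DN:WT liver. The log2 fold change was -1.15 ± 0.29 (adjusted p = 0.0259 by edgeR). With all 48 livers it was -1.02 ± 0.36 and was not called (adjusted p = 0.331 by edgeR), where 0% of all genes were called lower, so this call rests on the choice of livers. In the same comparison 6 of 8 T cell markers, 2 of 10 macrophage markers and 1 of 5 neutrophil markers were higher by edgeR, with T cell markers summing to 3.87 to 37.2 CPM in DN:HET against 2.44 to 5.23 CPM in DN:WT, and their part in the Fdps call was not tested. Counted over all 48 livers, 2 T cell markers and no macrophage or neutrophil marker were higher. All 8 members had estimates below 0 in DN:HET, from -0.10 for Ggps1 to -1.15 for Fdps. Acat2 stood at -0.41 ± 0.16 (adjusted p = 0.174 by edgeR) and Pmvk at -0.55 ± 0.23 (adjusted p = 0.253), and neither passed.

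DN:HOM against DN:HET, which shares its homozygous livers with the comparison above, gave the same 6 members, where 27.8% of all genes were called lower. Acat2 changed by -1.11 ± 0.16, Hmgcs1 by -1.15 ± 0.22 and Mvd by -1.58 ± 0.31. Pmvk was the called member whose groups overlapped, with DN:HET from 7.06 to 18.4 CPM. In that direction 10.5% of all genes had groups that did not overlap. Over all 48 livers, where 24.9% of all genes were called lower, 4 members were called and Idi1 (adjusted p = 0.0527 by edgeR) and Fdps (adjusted p = 0.0795) were not. Ggps1, at 0.16 (adjusted p = 0.0829 by edgeR), was called higher in this comparison by DESeq2, with upper-quartile scaling (0.23, adjusted p = 0.0143), with library size alone and with hepatocyte scaling. Under the last, where the median of all genes stood at 0.61, Mvk was called higher too (0.46, adjusted p = 0.00300), and Pmvk and Idi1 were not called.

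The knockout tested the loss of the receptor on the same diet. The same 6 members were lower in KO:HOM than in KO:WT, to between 23% and 66.7% of the wild-type level, where 7.87% of all genes were called lower and 19.4% in either direction. Again no member was higher. The median log2 fold change was -0.86 over the members and -0.02 over all genes. Over all 48 livers, whose KO livers are the same but whose fitted spread includes the 2 other livers, 5 members were called, against 4.12% of all genes called lower, and Hmgcs1 was not.

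Fdps moved furthest here too. It ran from 1.19 to 6.46 CPM in KO:WT (median 2.62) and from 0.190 to 1.21 CPM in KO:HOM (median 0.744, 1 to 19 reads), a log2 fold change of -2.12 ± 0.32 (adjusted p = 7.64e-06 by edgeR). Idi1 ran from 3.68 to 18.4 CPM in KO:WT (median 9.75) and from 1.49 to 5.61 CPM in KO:HOM (median 3.87), a change of -1.60 ± 0.28 (adjusted p = 4.63e-05 by edgeR). For Fdps 7 of 8 KO:HOM livers and for Idi1 4 of 8 lay below the lowest KO:WT liver. The groups of all 8 members overlapped in this comparison, where 0.369% of all genes lay wholly lower.

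Mvd ran from 2.65 to 13.99 CPM in KO:WT (median 6.02) and from 1.14 to 5.27 CPM in KO:HOM (median 2.88), a change of -1.24 ± 0.30 (adjusted p = 0.00226 by edgeR). Pmvk ran from 8.82 to 30.8 CPM (median 17.9) and from 5.32 to 13.6 CPM (median 9.37), a change of -1.10 ± 0.23 (adjusted p = 0.000544 by edgeR). For Pmvk the KO:WT livers spread widely, with a coefficient of variation of 49.3%. The entry enzymes changed less. Acat2 ran from 39.9 to 106 CPM in KO:WT (median 61.7) and from 30.1 to 59.4 CPM in KO:HOM (median 42.2), a change of -0.62 ± 0.15 (adjusted p = 0.00277 by edgeR). Fitted over all 48 livers, these changes were -2.12 for Fdps, -1.60 for Idi1, -1.24 for Mvd, -1.09 for Pmvk and -0.61 for Acat2, the last only just called (adjusted p = 0.0463 by edgeR).

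Hmgcs1 is the weakest call of the knockout. It ran from 55.5 to 226 CPM in KO:WT (median 113) and from 48.1 to 124 CPM in KO:HOM (median 73.3), a change of -0.59 ± 0.21 (adjusted p = 0.0405 by edgeR). The highest KO:WT liver, animal 23, stood well above the next, which had 134 CPM. The call held with DESeq2 (-0.58, adjusted p = 0.0304) and unstranded counts (-0.58, adjusted p = 0.0421 by edgeR). It was lost over all 48 livers (-0.58, adjusted p = 0.119), without the 2 livers of low depth (-0.52, adjusted p = 0.0893), with upper-quartile scaling (-0.56, adjusted p = 0.0576), with library size alone (-0.47, adjusted p = 0.0957), without a low-count filter (-0.59, adjusted p = 0.0604) and with each study alone (-0.58, adjusted p = 0.0882), all by edgeR, and at a threshold of 0.01. The estimate ran from -0.47 to -0.59 over these settings. With scaling to hepatocyte genes the median of all genes stood at 0.31 in this comparison. There neither Hmgcs1 (-0.30, adjusted p = 0.254 by edgeR) nor Acat2 (-0.32, adjusted p = 0.107) was called. Pmvk, Mvd, Idi1 and Fdps were still called lower, and Ggps1 was called higher at 0.43. Relative to that median Hmgcs1 and Acat2 stood at -0.61 and -0.63, which nearly repeats their main estimates. Mvk ran from 6.48 to 12.2 CPM in KO:WT (median 8.77) and from 5.55 to 9.39 CPM in KO:HOM (median 7.16), a change of -0.33 ± 0.12 (adjusted p = 0.0521 by edgeR), just beyond the threshold, and DESeq2 called it (-0.32, adjusted p = 0.0488). Ggps1 ran from 10.4 to 15.1 CPM and from 12.3 to 15.03 CPM, a change of 0.08 ± 0.08 with a 95% interval from -0.08 to 0.24 (adjusted p = 0.509 by edgeR).

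No member was called in KO:HET against KO:WT by edgeR over 46 or 48 livers, and DESeq2 called none either. At an unadjusted p under 0.05, edgeR gave 4 members, Mvk, Mvd, Idi1 and Fdps, all lower, where 3.35% of all genes were lower at that p. Fdps stood at 54.8% of KO:WT, with a log2 fold change of -0.87 ± 0.29 (adjusted p = 0.646). Only 3 of 15711 genes, 0.0191%, were called in this comparison. KO:HOM against KO:HET gave Fdps (-1.25 ± 0.33, adjusted p = 0.00965 by edgeR) and Idi1 (-0.99 ± 0.28, adjusted p = 0.0160), where 3.34% of all genes were called lower. Neither was called over all 48 livers, at adjusted p = 0.0516 and 0.0625 by edgeR, where 1.13% of all genes were called lower. Pmvk stood at -0.68 (adjusted p = 0.0524 by edgeR) and was called lower by DESeq2 (-0.68, adjusted p = 0.0332) and with unstranded counts (-0.71, adjusted p = 0.0386 by edgeR). With hepatocyte scaling Ggps1 was called higher at 0.34, where the median of all genes stood at 0.24. Fdps levels of KO:HOM lay below all those of KO:HET, as for 0.210% of all genes.

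The homozygous effects of the studies, which share no animals, were set against each other by the difference of their log2 fold changes. Acat2 fell further in the knock-in, by -0.90 ± 0.22 (adjusted p = 0.00141 by edgeR), and so did Hmgcs1, by -0.82 ± 0.30 (adjusted p = 0.0327), where 34.7% of all genes differed and 18.3% were further down in the knock-in. Neither difference was called over all 48 livers, at -0.50 ± 0.30 (adjusted p = 0.277) and -0.43 ± 0.35 (adjusted p = 0.445 by edgeR), where 6.42% of all genes were further down in the knock-in, and neither was called with hepatocyte scaling, at -0.49 (adjusted p = 0.0984) and -0.40 (adjusted p = 0.323 by edgeR). That scaling moved the median difference of all genes to 0.37. Relative to it Acat2 stood at -0.87 and Hmgcs1 at -0.77, which nearly repeats their main estimates and adds no evidence. Ggps1 was called higher there at 0.34, which is -0.04 relative to that median. The call of Hmgcs1 was also lost with library size alone, without a low-count filter and at a threshold of 0.01. For the other 6 members the difference did not pass, with 95% intervals from -1.27 to 0.55 for Fdps, -0.61 to 0.99 for Idi1, -1.65 to 0.08 for Mvd, -1.09 to 0.26 for Pmvk, -0.31 to 0.40 for Mvk and -0.25 to 0.21 for Ggps1. The intervals of Fdps, Idi1, Mvd and Pmvk are wide enough to hold differences of 0.9 or more on the log2 scale.

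The wild types of the studies were compared as well. Hmgcs1 alone was called, higher in DN:WT than in KO:WT by 0.82 ± 0.21 (adjusted p = 0.00764 by edgeR), where 12% of all genes were called in either direction and 5.54% higher in DN:WT. It was called over all 48 livers too (0.73 ± 0.25, adjusted p = 0.0424 by edgeR), where 6.51% of all genes were higher. Mvd stood at 0.68, with a 95% interval from 0.09 to 1.27 (adjusted p = 0.125 by edgeR), and with scaling to hepatocyte genes Mvd at 0.99 and Ggps1 at 0.38 were called higher too. That scaling moved the median of all genes to 0.30 and called 5967 genes higher, and relative to that median Mvd stood at 0.69 and Ggps1 at 0.08. In DN:HOM and KO:HOM Hmgcs1 reached nearly the same level, at 75.7 ± 10.03 and 76.1 ± 22.9 CPM. The larger knock-in difference in this gene went with a higher starting level in its wild types. Acat2, the other gene with a called difference of effects, stood at 0.04 between the wild types (adjusted p = 0.920 by edgeR). Whether the starting level has a part was not tested.

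Within groups the members also moved together from liver to liver. For each liver of the main set, the deviation of log2 CPM from its group mean was taken, and Pearson's r was computed for all 28 pairs of members, with 100000 permutations of livers within groups and Benjamini-Hochberg adjustment over the 28 pairs. Among the 15 pairs of the 6 members called in both homozygous comparisons, r ran from 0.43 to 0.84 with a median of 0.67, and Spearman's rho from 0.31 to 0.82. All 15 passed by r and 14 by rho. Over all 87761376 pairs of 13249 genes, 3.44% had r as high as the lowest of these 15, with a median r of -0.0017. Acat2 and Hmgcs1 were the closest pair, with r = 0.84 (permutation p = 1e-05, the smallest these permutations can give) and rho = 0.80 (permutation p = 1e-05), and r = 0.79 without the 2 livers farthest in Acat2. Leaving out the 2 farthest livers of each pair gave r from 0.30 to 0.80 over the 15 pairs.

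Mvk followed the others loosely. Its 7 pairs had r from -0.06 to 0.40, of which 3 passed by r and none by rho. For Ggps1 r was below 0 in all 7 of its pairs, from -0.42 to -0.06, and most did not pass. How many pairs of all genes have r this low was not counted. Of the 7 pairs, 2 passed by r, with Acat2 (r = -0.42, permutation p = 0.0138, adjusted 0.0258, and rho = -0.34, permutation p = 0.0378) and Idi1 (r = -0.37, permutation p = 0.0241, adjusted 0.0375, and rho = -0.33, permutation p = 0.0409). None passed by rho, where the lowest adjusted p among its pairs was 0.0638. Values of 1 liver share a library and a scaling factor, so part of any such relation can be common to the library.

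**Figure D4:**
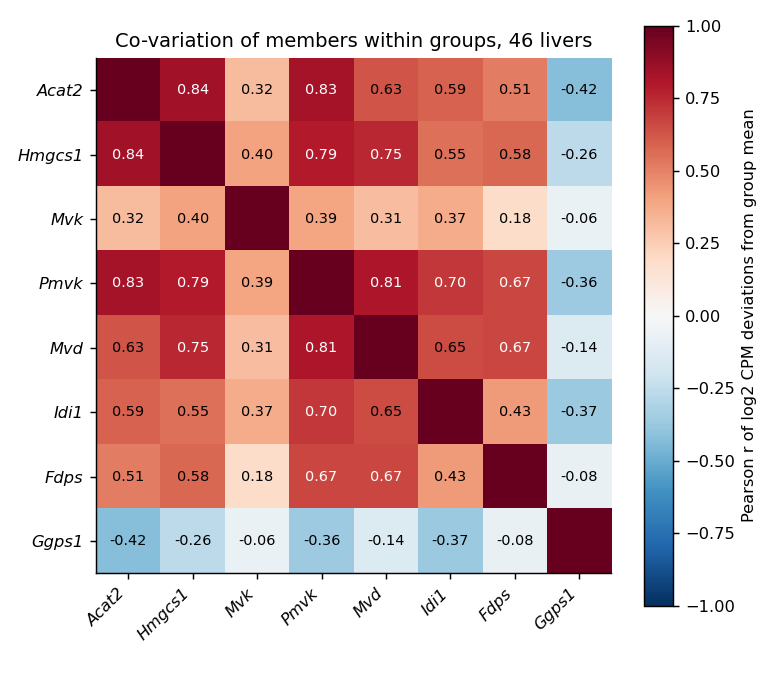
Pearson's r between members (both axes), from deviations of log2 CPM from the group mean in 46 livers. Pairs of Acat2, Hmgcs1, Pmvk, Mvd, Idi1 and Fdps are all at 0.43 or above, Mvk pairs reach at most 0.40 and Ggps1 pairs are all below 0.

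By mean r with the members over the same 46 livers, the 10 most like genes among those with a mean of at least 1 CPM were Rdh11, Sc5d, Dhcr7, Msmo1, Acss2, Gpam, Acsl5, Elovl5, Cyb5r3 and Nsdhl. Sc5d, Dhcr7, Msmo1 and Nsdhl act in the late steps of cholesterol synthesis. Acss2 makes acetyl-CoA from acetate, Gpam starts glycerolipid synthesis, Acsl5 activates fatty acids and Elovl5 lengthens polyunsaturated ones. Rdh11, a retinol dehydrogenase, led with a mean r of 0.61, and Nsdhl closed the list with 0.55. Ggps1 was again apart, with r from -0.42 to -0.20 against these 10 genes. The same 10 genes came first over all 48 livers and with a prior count of 0.5, and 9 of them by Spearman's rho. Their log2 fold changes in DN:HOM against DN:WT were all negative, from -0.87 for Cyb5r3 to -2.59 for Elovl5.

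The pathway beyond the members was read from 4 lists, whose counts stand against 30% of all genes called lower in DN:HOM and 7.87% in KO:HOM over the 46 livers, and 25% and 4.12% over all 48. Most of the 14 enzymes from squalene to cholesterol were lower in the homozygous livers, as most members were. In DN:HOM 12 were lower and 1 higher, with a median log2 fold change of -1.15, and in KO:HOM 11 were lower and none higher, with a median of -0.67. With all 48 livers these counts were 12 and 1 in DN:HOM and 9 and 0 in KO:HOM. The C14-sterol reductase Tm7sf2 fell by 2.0 on the log2 scale in DN:HOM and by 1.31 in KO:HOM. Lss, which closes the sterol rings, changed by -1.48 and -0.87, and Hsd17b7 by -1.35 and -0.64, all called in both. Lbr, which can act as a C14-sterol reductase in the nuclear envelope, was the one called higher in DN:HOM, at 0.45, and was not called in KO:HOM, at -0.14. None of the 14 was called in DN:HET or KO:HET by edgeR.

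**Figure D5:**
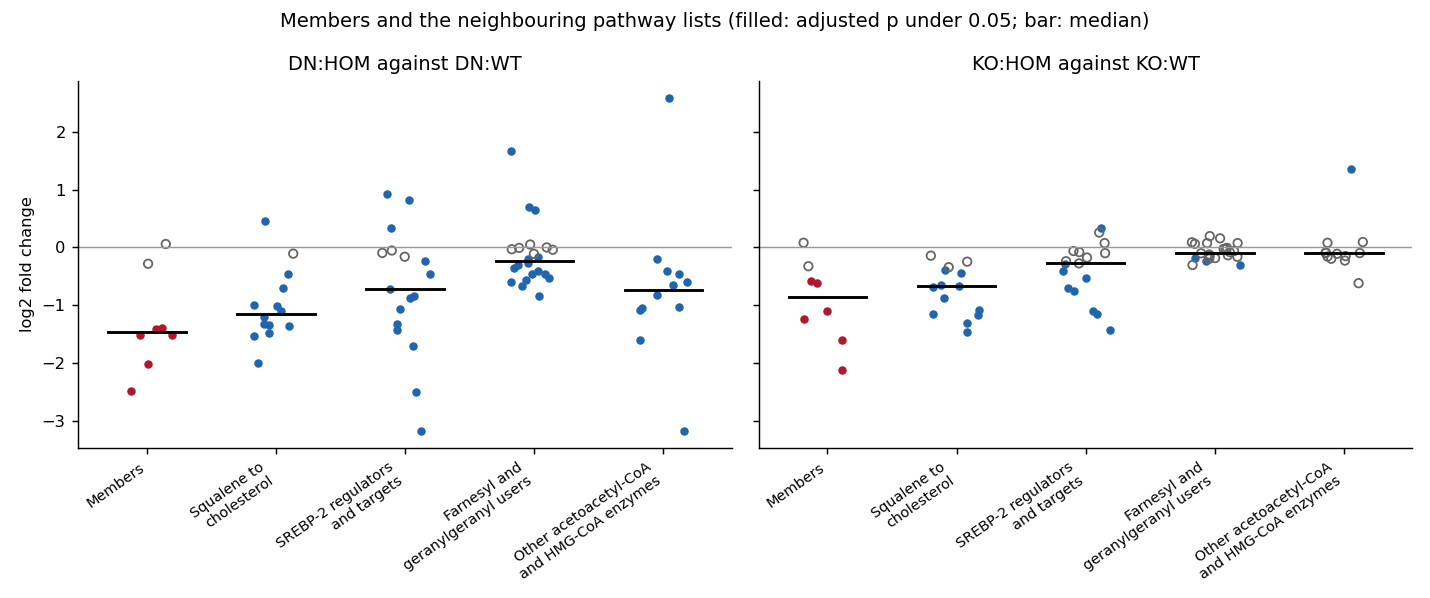
Log2 fold change of homozygous against wild-type livers (y axis) for the 8 members and the genes of 4 pathway lists (x axis), in the knock-in (left) and the knockout (right), with filled points at adjusted p under 0.05 and a bar at each median. The members and the squalene to cholesterol enzymes lie mostly below 0 in both panels, while the farnesyl and geranylgeranyl users centre near 0 in the knockout.

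Among 17 regulators and other targets of the SREBP-2 pathway, 11 were lower and 3 higher in DN:HOM, and 8 lower and 1 higher in KO:HOM, with medians of -0.71 and -0.28. The counts over all 48 livers were 11 and 2 in DN:HOM and 6 and 0 in KO:HOM. Insig1, which holds SREBP in the endoplasmic reticulum and is itself an SREBP target, changed by -2.51 in DN:HOM and -1.10 in KO:HOM. Stard4, a sterol carrier, changed by -1.71 and -1.15. Srebf1, a direct target of LXR that drives fatty acid synthesis, changed by -3.18 and -0.71, all called in the 46 livers, though Srebf1 was not called in KO:HOM over all 48 livers. The gene for SREBP-2 itself, Srebf2, which was singled out after its values were seen, stood at -0.05 and was not called in DN:HOM, and it was called lower in KO:HOM at -0.29. Npc2, which carries cholesterol out of lysosomes, was called higher in DN:HOM at 0.82 and in KO:HOM at 0.35, in the latter without a call over all 48 livers. Mylip, at 0.92, and Mbtps2, at 0.34, were called higher in DN:HOM, Mbtps2 in the 46 livers alone.

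Of 22 genes whose products use farnesyl or geranylgeranyl diphosphate, 13 were lower and 3 higher in DN:HOM, with a median of -0.23, and 3 were lower and none higher in KO:HOM, with a median of -0.09. In either direction, 59.1% of all genes were called in DN:HOM and 19.4% in KO:HOM. Lower calls were a larger share of this list than of all genes, of which 30% and 7.87% were called lower. In KO:HOM that share rests on 3 genes. With all 48 livers 11 were lower and 3 higher in DN:HOM and 2 were lower in KO:HOM. Chml, an escort of Rab geranylgeranylation, was called at 1.67 in DN:HOM and stood at 0.06 in KO:HOM. Pdss2 of ubiquinone synthesis changed by -0.68 in DN:HOM, Srd5a3 of dolichol synthesis by 0.70 and the CAAX protease gene Rce1 by 0.64. None of these 4 was called in KO:HOM.

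The fourth list held other enzymes around acetoacetyl-CoA, HMG-CoA and ketone bodies, with paralogs of the members. Of 14 listed, 12 passed the filter on low counts, and 11 were lower and 1 higher in DN:HOM, while none was lower and 1 higher in KO:HOM, with medians of -0.73 and -0.10. Counted over all 48 livers, 10 were lower and 1 higher in DN:HOM, and the counts in KO:HOM were the same. In the difference of the homozygous effects, 9 of the 12 were further down in the knock-in over the 46 livers, where 18.3% of all genes were, and 4 over all 48, where 6.42% were. Aacs, which activates acetoacetate for lipid synthesis, changed by -3.17 in DN:HOM and stood at -0.62 without a call in KO:HOM. The peroxisomal thiolase Acaa1b stood at -1.61 and -0.10 and the mitochondrial thiolase Acat1 at -1.09 and -0.09, called in DN:HOM and not in KO:HOM. Oxct1, which lets tissues burn ketone bodies and is low in hepatocytes, was higher in both, by 2.6 and 1.35.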

How the data were processed

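PolyA RNA of whole liver from 48 mice was sequenced as stranded libraries. The deposited values are read counts per gene, made by the authors with STAR 2.5.0a against GRCm39 from reads mapping to 1 place, with no normalization. The column for the strand of the kit was used, which held 6.97 to 8.62 times the reads of the other strand. Between 24% and 35% of reads named no gene and were left out of library sizes. Depth was 5332897 to 16961379 reads on genes (median 15879971), and the lowest count of a member in any liver was 1.

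Livers were grouped by the genotype in their labels, and no 2 libraries of a group were identical. DN:WT animal 10 and DN:HOM animal 12 were left out of the main set of 46 because a sheet of the study's source data, with 7 DN:WT, 8 DN:HET and 7 DN:HOM livers, lacks them. The study elsewhere describes 8 livers per group, so the 46 are the livers of that sheet and of the knockout study, not a set the study states. The match used 5 genes, differed by at most 0.0005%, and the next best liver differed by at least 5.03%. The reason they are absent is not given in the sources used here. Genes passing filterByExpr (15711, or 15621 over all 48 livers) were fitted in edgeR 4.0.16 (R 4.3.3) with TMM scaling, quasi-likelihood F tests over 6 group means and Benjamini-Hochberg adjustment, threshold 0.05. The study's own tool, DESeq2 (1.42.0 here), was an alternative. On counts simulated from the 15711 genes for DN:HOM against DN:WT, 44 of 47 genes lowered by 2 log2 units, 33 of 48 lowered by 1 and 11 of 15126 unchanged genes were called. Log2 CPM for correlations used a prior count of 2. Copies of transcripts were sought with blastn 2.17.0+, and tables and figures were made with Python 3.11.15 (pandas 2.3.3, scipy 1.17.1, matplotlib 3.10.9). Alternatives were all 48 livers, other scalings, no low-count filter, counts of both strands, each study alone, the livers of low depth left out, a threshold of 0.01, a prior count of 0.5 and Spearman's rho. Adding pseudogene reads was chosen after seeing the data.

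The members, the 4 pathway lists and the 10 marker lists were chosen with earlier results of these data known. Named list genes were up to 4 with the largest absolute log2 fold change among those called in DN:HOM against DN:WT, and those called against the direction of their list's median. Some genes that this rule names are not reported here.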

Additional observations from a re-analysis of the deposited data

Results flagged for a closer look

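DN:HOM animal 12, which is not in the main set, stood apart from the other 7 DN:HOM livers for 6 members, by the gap to the nearest liver relative to the range of the group (Dixon's test at 95%). Acat2 was 68.952 CPM against 25.4 in the next liver, Hmgcs1 224.76 against 90.3, Pmvk 18.462 against 8.55, Mvd 9.8602 against 3.25, Idi1 11.958 against 4.74 and Fdps 3.7063 against 0.935 CPM. Its Mvk and Ggps1 levels did not stand apart. In the main set, Mvd in DN:WT animal 17 was 21.618 CPM against 11.8 in the next DN:WT liver, which also stood apart among all 8 DN:WT livers, and Hmgcs1 in KO:WT animal 23 was 225.64 CPM against 134 in the next KO:WT liver. Chance gives such a gap in about 1 in 20 groups, and 48 groups of livers were tested in the main set.

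The homozygous differences of the studies differed by an interaction test for Acat2 (knock-in minus knockout -0.90116 on the log2 scale, adjusted p = 0.00141 by edgeR) and Hmgcs1 (-0.81512, adjusted p = 0.0327 by edgeR). All 7 DN:HOM livers of the main set lay below the lowest DN:WT liver for both genes, while KO:HOM and KO:WT overlapped for both. Neither difference was called with all 48 livers or with hepatocyte scaling. That of Hmgcs1 was also not called with library size alone, without a low-count filter or at a threshold of 0.01.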

How the results depend on the processing

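The 6 members called in DN:HOM against DN:WT stayed lower and called under each of the alternatives run. Among the recomputed changes of single members, 17 turned direction. Of those that did not turn, 22 lost a call, 14 gained one and the others kept theirs. Some that turned also gained a call. These were Mvk with hepatocyte scaling in DN:HOM against DN:WT and against DN:HET. Ggps1 in the difference of effects did so with library size alone and with hepatocyte scaling. Counts stayed within 1.5 times in 138 cases and moved further in 26. The causes of these shifts were not tested.

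With all 48 livers the members called fell from 1 to 0 in DN:HET against DN:WT, from 2 to 0 in KO:HOM against KO:HET and from 2 to 0 in the difference of homozygous effects, and the genes called from 361 to 39, from 1663 to 737 and from 5456 to 1636, and in KO:HOM against KO:WT from 3048 to 2016. At a threshold of 0.01 the members called were 0, 1 (Fdps) and 1 (Acat2) in the first 3 of these, and the genes called were 30 in DN:HET against DN:WT, 1755 in KO:HOM against KO:WT, 668 in KO:HOM against KO:HET and 940, from 1887, in DN:WT against KO:WT. Scaling to hepatocyte genes gave 7828 genes in KO:HOM against KO:WT, 4843 in KO:HOM against KO:HET, 6255 genes and 3 members in DN:WT against KO:WT, 6 genes, from 3, in KO:HET against KO:WT and 1 member, Ggps1 (higher, in place of Acat2 and Hmgcs1), in the difference of effects. With library size alone that difference called Acat2 and, in place of Hmgcs1, Ggps1 (higher). DESeq2 gave 617 genes in DN:HET against DN:WT and 10 in KO:HET against KO:WT. Fitting each study alone gave 239 genes in DN:HET against DN:WT and 1 member, Fdps, in KO:HOM against KO:HET. Without a low-count filter, 8 genes were called in KO:HET against KO:WT and 1 member, Acat2, in the difference of effects.

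The direction of small changes turned in these cases. Mvk became 0.1465 with library size alone and 0.4118 with hepatocyte scaling in DN:HOM against DN:WT, 0.2087 and 0.4588 in DN:HOM against DN:HET, -0.006404 with unstranded counts in the difference of effects and 0.09232 with hepatocyte scaling in DN:WT against KO:WT. Ggps1 in KO:HET against KO:WT became 0.001264 with all 48 livers, 0.009389 with upper-quartile scaling, 0.01007 with library size alone, 0.08654 with hepatocyte scaling and 0.001789 with no filter, and its difference of effects 0.03104, 0.2895 and 0.3358 under those 3 scalings. With all 48 livers the difference of effects of Fdps became 0.3224, and DN:WT against KO:WT became -0.06566 for Acat2 and -0.03084 for Pmvk. Low counts limit Fdps (median 20.5 reads per liver) and Idi1 (median 92). No paired analysis was possible because the labels number each mouse on its own within a study, and no number is shared between genotypes of a study.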

Other observations

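Sqle, which makes the first oxygenated sterol precursor from squalene, was singled out after its values were seen, as the one enzyme from squalene to cholesterol that was not called in DN:HOM against DN:WT. Its log2 fold change was -0.11 ± 0.47 (SE, adjusted p = 0.860 by edgeR) in DN:HOM and -1.17 ± 0.43 (adjusted p = 0.0490) in KO:HOM, and the difference of these effects, 1.06 ± 0.64, was not called (adjusted p = 0.202). Sqle was lower in DN:WT than in KO:WT by 1.58 on the log2 scale (adjusted p = 0.0171 by edgeR), a direction opposite to that of Hmgcs1 in the same comparison. Over all 48 livers Sqle stood at -0.20 in DN:HOM and -1.17 in KO:HOM, neither of them called.

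The other marker lists moved as follows in the 46 livers. In DN:HOM against DN:WT, 4 of 8 T cell markers, 5 of 5 tested neutrophil markers, 7 of 8 stellate cell markers, 6 of 6 proliferation genes and 1 of 6 endothelial markers were higher, while 4 of 6 endothelial, 2 of 5 B cell and 2 of 5 erythroid markers were lower. In KO:HOM against KO:WT, 8 of 8 T cell, 3 of 5 neutrophil, 5 of 8 stellate cell, 1 of 6 proliferation and 1 of 6 endothelial markers were higher, 1 of 6 endothelial and 1 of 5 erythroid markers were lower, and no B cell marker was called. Some counts moved by more than 1.5 times over all 48 livers. In DN:HOM 1 T cell marker and no endothelial marker were higher and no B cell and 1 erythroid marker lower, and in KO:HOM 1 neutrophil, 2 stellate cell and no proliferation marker were higher and no erythroid marker lower. The summed level of the 12 hepatocyte markers ran from 55579 to 66012 CPM in DN:HOM against 84867 to 105150 CPM in DN:WT, and from 76032 to 99240 CPM in KO:HOM against 99603 to 129480 CPM in KO:WT. The neutrophil gene Ly6g had 0 reads in 40 of 48 livers and the cholangiocyte gene Cftr in 11. The part of these shifts in the members' changes was not tested.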
